A study of Mus musculus with 32 samples.

Results

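The 42 genes described here are imprinted genes of the mouse that lie outside the *Snrpn* cluster, from 19 chromosomal clusters. They were taken from a list of imprinted genes, with no use of the measured values, and found in the RefSeq gene table of build GRCm38.p6. That table holds 34623 genes on chromosomes 1 to 19, X and Y when protein-coding genes, long non-coding RNAs and antisense RNAs are counted. In 4 of the genes, *H19*, *Meg3*, *Rasgrf1* and *Zdbf2*, the imprint of the locus is DNA methylation on the paternal allele. The other 38 were compared with them as 1 group, which includes genes of the same clusters such as *Igf2*, *Dlk1*, *Rian*, *Mirg* and *Rtl1*.

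The series measured trimethylation of lysine 9 on histone H3 (H3K9me3), which marks heterochromatin, using ChIP-seq on male germ cells (gonocytes) from testes of *Mvh*-Venus mice. This transgene is a fluorescent reporter driven by the germ cell gene *Mvh*, and every group carried it. The 4 stages, written as E13.5 and E16.5 for embryonic days and P0 and P3 for postnatal days, were each sampled in *Morc1* +/- animals (het) and *Morc1* -/- animals (KO), with 2 H3K9me3 samples and 2 histone H3 samples per genotype and stage. The controls were heterozygotes, so all animals carried at least 1 mutant *Morc1* allele. *Morc1* encodes a GHKL ATPase needed to silence transposons in male germ cells.

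What was analysed is 8 peak lists, 1 for each stage and genotype of the H3K9me3 samples, which give positions only. Each list stands for both samples of its group, so there is no spread between replicates, no test between lists and no p-value below. Differences are given as sizes, beside the share of all genes that passed the same limit. The lists held 52628 to 93523 peaks and covered 166.1 to 339.5 Mb. Read depth is unknown, and the number and length of peaks can change with it, which was not tested. The lists carry no expression values, so neither the cell type nor the *Morc1* genotype could be checked against them, and they do not separate the parental alleles.

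An imprinted gene is expressed from 1 parental allele, under the control of a nearby region whose DNA methylation was set in the egg or in the sperm lineage. In somatic cells the methylated allele of such a region also carries H3K9me3, laid down through the zinc finger protein ZFP57, its partner TRIM28 and the methyltransferase SETDB1. In the germ line the inherited marks are erased, and in male germ cells the paternal imprints are then put on again before birth. H3K9me3 over these genes in gonocytes therefore bears on loci that pass through erasure and, for *H19*, *Meg3*, *Rasgrf1* and *Zdbf2*, through new methylation.

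The start regions of 6 genes are printed because the results turn on them. *Mest*, *Peg3* and *Plagl1* are paternally expressed genes with an H3K9me3 peak within 1 kb of the start at E13.5 and at no later stage. In *Plagl1* that peak was in the het list only. *Meg3* is a maternally expressed long non-coding RNA with such a start peak, also in the het list only. *Inpp5f*, which encodes an inositol phosphatase, had a peak at its listed start in all 8 lists. *Nnat*, which encodes a small membrane protein, had none in any list. Each sequence is the RefSeq promoter entry of build GRCm38.p6, 250 bases before to 50 bases after the start, 5′ to 3′ on the gene's strand. Capitals mark TGCCGC, the hexamer that ZFP57 is known to bind when its CG is methylated, or its reverse complement GCGGCA. The intervals are chr6:30737800-30738099 (+) for *Mest*, chr7:6730370-6730669 (-) for *Peg3*, chr10:13090582-13090881 (+) for *Plagl1*, chr12:109540746-109541045 (+) for *Meg3*, chr7:128611115-128611414 (+) for *Inpp5f* and chr2:157559828-157560127 (+) for *Nnat*.
Mest: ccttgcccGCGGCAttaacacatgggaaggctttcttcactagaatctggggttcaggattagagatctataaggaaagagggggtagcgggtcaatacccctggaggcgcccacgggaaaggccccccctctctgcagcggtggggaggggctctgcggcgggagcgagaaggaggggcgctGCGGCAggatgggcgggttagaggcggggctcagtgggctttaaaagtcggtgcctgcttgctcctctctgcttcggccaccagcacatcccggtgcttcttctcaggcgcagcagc
Peg3: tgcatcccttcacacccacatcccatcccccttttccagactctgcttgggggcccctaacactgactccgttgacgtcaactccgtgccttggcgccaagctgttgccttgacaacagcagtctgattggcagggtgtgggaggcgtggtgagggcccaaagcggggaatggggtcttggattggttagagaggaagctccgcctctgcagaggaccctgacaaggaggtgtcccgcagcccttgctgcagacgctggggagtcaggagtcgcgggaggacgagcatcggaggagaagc
Plagl1: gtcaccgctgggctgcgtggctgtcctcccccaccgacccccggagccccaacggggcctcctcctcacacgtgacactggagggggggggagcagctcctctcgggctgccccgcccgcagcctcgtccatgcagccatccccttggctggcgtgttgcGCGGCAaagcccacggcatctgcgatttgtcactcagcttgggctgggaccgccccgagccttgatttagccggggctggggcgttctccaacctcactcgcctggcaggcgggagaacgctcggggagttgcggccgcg
Meg3: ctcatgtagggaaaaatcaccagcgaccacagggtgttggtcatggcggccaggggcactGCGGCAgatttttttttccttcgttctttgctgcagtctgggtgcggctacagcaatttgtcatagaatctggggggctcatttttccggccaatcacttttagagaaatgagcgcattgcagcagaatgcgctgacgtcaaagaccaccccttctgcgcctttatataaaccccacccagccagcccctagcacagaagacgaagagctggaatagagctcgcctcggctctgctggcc
Inpp5f: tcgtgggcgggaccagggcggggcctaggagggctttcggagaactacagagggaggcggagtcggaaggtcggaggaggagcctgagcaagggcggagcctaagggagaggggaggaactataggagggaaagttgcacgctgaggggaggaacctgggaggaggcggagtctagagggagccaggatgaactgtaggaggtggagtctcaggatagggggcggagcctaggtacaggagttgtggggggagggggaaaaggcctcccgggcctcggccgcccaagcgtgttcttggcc
Nnat: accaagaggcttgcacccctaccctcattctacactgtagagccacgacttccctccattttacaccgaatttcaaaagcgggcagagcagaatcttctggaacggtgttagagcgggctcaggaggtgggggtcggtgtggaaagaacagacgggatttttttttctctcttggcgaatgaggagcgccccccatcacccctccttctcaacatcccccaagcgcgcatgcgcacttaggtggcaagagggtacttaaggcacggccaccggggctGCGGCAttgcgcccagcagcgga

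All 6 sequences are rich in CG pairs. The *Plagl1* window held 26 of them, the *Mest* and *Nnat* windows 17 each, *Inpp5f* 15, and *Peg3* and *Meg3* 13 each, against a median of 7 over the 32851 start sites of the promoter table. The hexamer was found 2 times in *Mest*, 1 time each in *Plagl1*, *Meg3* and *Nnat*, and not in the windows of *Peg3* and *Inpp5f*. Over the whole table, 11.6% of start sites had it on either strand. Of the imprinted genes, 31 had an entry, with 45 start sites, and 13 of those sites (28.9%) had it. It was in 5 of the 15 start sites called only at E13.5 and in 8 of the 25 called in no list, so its presence did not separate those sets. The 11 genes without an entry are *H19*, *Kcnq1*, *Cdkn1c*, *Rtl1*, *Peg10*, *Sgce*, *Nespas*, *Impact*, *Peg13*, *Trappc9* and *Kcnk9*.

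At E13.5, H3K9me3 peaks lay at the starts of many imprinted genes, and after E13.5 most of these start peaks were gone. A start counted as called when at least 1 bp within 1 kb of it was in a peak. Of the 31 genes with a start site, 10 were called in the E13.5 het list, where 7.31% of all genes were, and 13 in the E13.5 KO list, where 9.57% were. At E16.5 the counts were 3 in het (8.71% of all genes) and 2 in KO (8.26%). At P0 they were 2 in het (9.05%) and 2 in KO (10.5%), and at P3 they were 4 in het (8.83%) and 5 in KO (10.1%). The imprinted genes thus stood above the background share in both E13.5 lists, and from E16.5 on their counts were between 2 and 5 of 31.

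**Figure D1:**
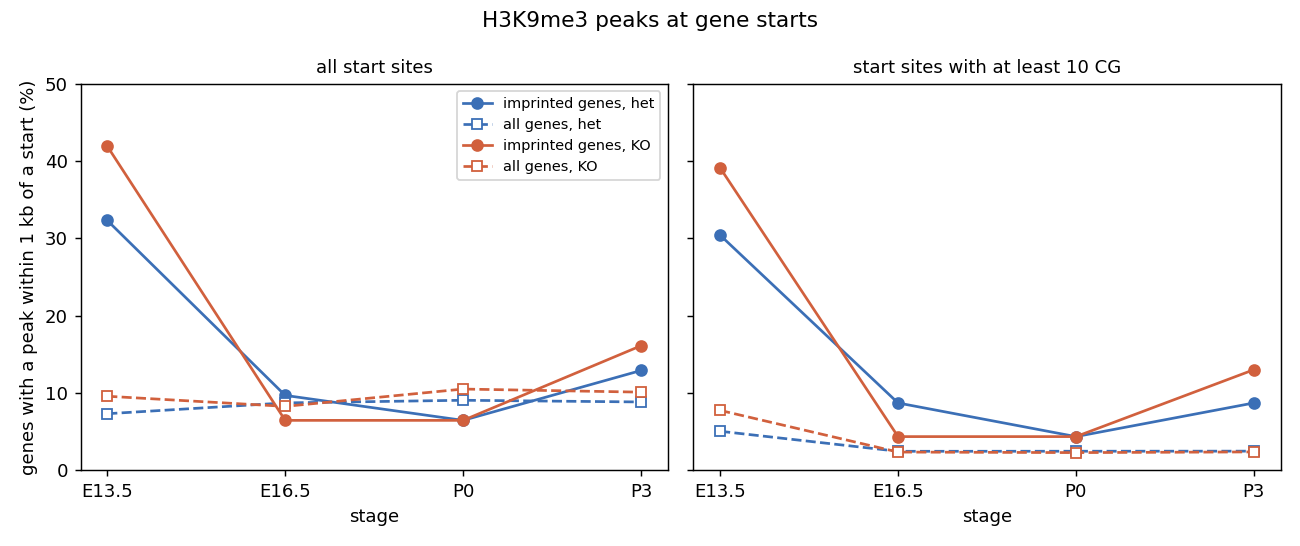
Share of genes with an H3K9me3 peak within 1 kb of a start site (y axis, percent) by stage (x axis), for imprinted genes (filled circles, solid lines) and all genes of the promoter table (open squares, dashed lines), in het (blue) and KO (red), with all start sites on the left and CG-rich ones on the right. The imprinted genes start at 10 and 13 of 31 at E13.5 and drop to 3 and 2 of 31 at E16.5, while among all genes the CG-rich start sites also drop, from 5.04% and 7.74% to 2.45% and 2.35%.

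In 11 genes a start was called at E13.5 and in no later list, a pattern shown by 3.96% of all genes. They were *Gnas*, *Grb10*, *Meg3*, *Mest*, *Peg3*, *Rasgrf1*, *Slc22a3*, *Phlda2*, *Plagl1*, *Sfmbt2* and *Usp29*. For 6 of them, *Gnas*, *Grb10*, *Mest*, *Peg3*, *Sfmbt2* and *Usp29*, both genotypes had the E13.5 call (1.37% of all genes). *Peg3* and *Usp29* are transcribed away from each other from 1 start region and share its peak, so these are 5 separate places. *Mirg* was the 1 gene called later and not at E13.5 (9.39% of all genes), *Inpp5f* and *Igf2* were called in all 8 lists (2.99%), and 15 genes in none (80.1%). Where at least 50% of the window had to be covered, the E13.5-only count was 7 genes. The share of all genes under that rule was not computed.

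CG-rich starts of other genes showed the same order of stages, at lower shares. Among start sites with at least 10 CG pairs in the printed window, which 23 of the imprinted genes have, 7 genes were called in E13.5 het (5.04% of 12388 genes) and 9 in E13.5 KO (7.74%). At E16.5 they were 2 in het (2.45%) and 1 in KO (2.35%). Of the 1063 genes called at such a start at E13.5, 741 (69.7%) were in no later list, against 9 of 11 imprinted genes. So the share lost after E13.5 was high among CG-rich starts in general, while the share called at E13.5 was above the background in the imprinted genes. This selection of CG-rich starts was chosen after seeing the data.

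*Mest*, which encodes a protein of the hydrolase family, gave the plainest case. Its start at chr6:30738050 lay inside a peak at chr6:30737078-30739984 in the E13.5 het list, 2.907 kb long, and inside a peak of 2.629 kb in the E13.5 KO list. None of the 6 later lists had a peak over its gene body or 5 kb flanks. Its neighbour *Copg2*, a subunit of the coatomer, was called in the P3 KO list only, with 2.002 kb.

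*Peg3*, a zinc finger gene, and *Usp29*, of the ubiquitin protease family, shared a peak at chr7:6727223-6730282 in E13.5 het, 3.06 kb long. In E13.5 KO it was shorter, at chr7:6728557-6730290, 1.734 kb. The peak began next to the *Peg3* start and ran into the *Peg3* gene, and it was in no later list. A second peak inside *Usp29*, from 2.198 to 3.963 kb long, was in all 8 lists and so was still called where the start was not. Over gene body and flanks, *Usp29* had 17.455 kb for E13.5 het, 25.053 kb for E13.5 KO, 5.974 kb for E16.5 het, 7.183 kb for E16.5 KO, 18.918 kb for P0 het, 22.557 kb for P0 KO, 13.533 kb for P3 het and 13.151 kb for P3 KO. The E16.5 lists were the lowest of the 8 in both genotypes. *Peg3* had 4.671 kb and 3.375 kb in the E13.5 lists (het, KO) and at most 1.919 kb later. *Zim1*, the zinc finger gene beside them, was in no list.

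At *Gnas*, which encodes the stimulatory G protein alpha subunit, 2 places were called at E13.5 only. One was beside *Nespas*, the antisense RNA of the locus, at chr2:174296645-174300852 in het (4.208 kb) and chr2:174298733-174300878 in KO (2.146 kb). The other was at the start of the *Gnas* transcript at chr2:174327749, with chr2:174328393-174329393 in het and chr2:174327498-174328931 in KO. Another *Gnas* start, at chr2:174284320, was in no list. The genes *Peg10*, derived from a retrotransposon, and *Sgce*, which encodes epsilon-sarcoglycan, have neighbouring ends at chr6:4747306 and chr6:4747204. A peak covered that space at E13.5 only, at chr6:4746050-4748320 in het (2.271 kb) and chr6:4746744-4749604 in KO (2.861 kb). Further into *Peg10*, a peak was in every list, and *Peg10* had 4.273 to 8.821 kb covered over the 8 lists.

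The remaining start calls were small or in 1 genotype. *Plagl1*, a zinc finger transcription factor gene, had a peak of 1.001 kb at its start in E13.5 het and none in KO, and 1.001 kb is the most common peak length in every list. *Phlda2*, a gene that restrains growth of the placenta, and *Slc22a3*, which encodes an organic cation transporter, had start peaks in E13.5 KO only. At *Grb10*, an adaptor of the insulin receptor, the E13.5 peak near the start at chr11:12027971 measured 1.001 kb (het) and 1.285 kb (KO). Peaks of P0 at chr11:12025378-12026879 in het and chr11:12025787-12026787 in KO lay just beyond the 1 kb limit, so this call depends on the limit. *Rasgrf1* had a start call in E13.5 KO, while its het peak lay beyond the limit. The *Inpp5f* start listed in the promoter table differed from all of these, with a peak in every list. Any other start of that gene was not measured. Whether the listed start is that of an imprinted transcript was not checked.

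**Figure D2:**
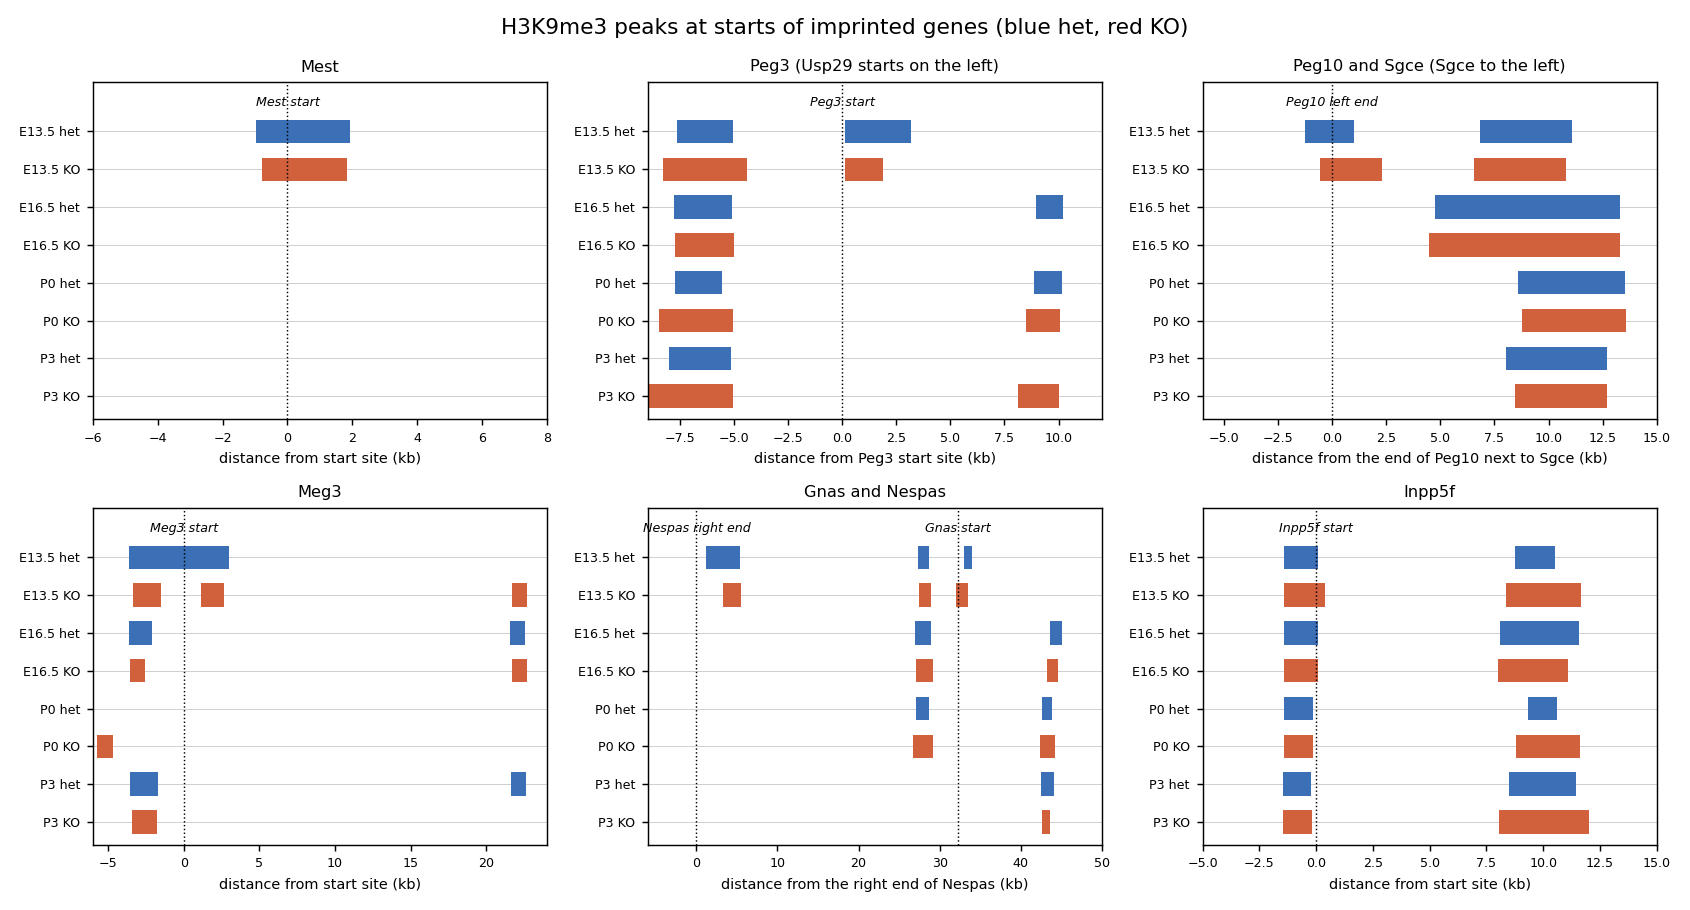
H3K9me3 peaks (bars) in the 8 lists (y axis, het blue and KO red) against distance from a gene's start or end in kb (x axis) for Mest, Peg3, Peg10 with Sgce, Meg3, Gnas with Nespas, and Inpp5f. At Mest both E13.5 lists have a peak of 2.907 and 2.629 kb and the 6 later lists have none, whereas the listed Inpp5f start has a peak in all 8 lists.

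Counted by place rather than by gene, the E13.5-only calls were spread over the clusters. Peaks of all lists that overlapped one another were merged, which gave 146 places near the imprinted genes and 127803 in the genome. The 127803 include places away from any gene, and no share was computed for places near genes alone. Of the 146, 36 (24.7%) were called at E13.5 and in no later list, compared with 5.89% of all places. With both genotypes required, 16 (11%) were, compared with 1.69%. They lay in 15 of the 19 clusters, or in 8 with both genotypes, and the *Peg3* cluster held 9 and 7 of them. Calls found after birth in both genotypes and in no embryonic list made up 20 of the 146 (13.7%) and 14.9% of all places, so there the imprinted genes did not stand out.

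The longest H3K9me3 domain over these genes lay in *Kcnq1ot1*, the antisense long non-coding RNA that silences its neighbours on the paternal chromosome. It was longest at E13.5 in both genotypes. In E13.5 het it ran over chr7:143225011-143274583, 49.573 kb, longer than 99.859% of the peaks of that list. In E13.5 KO it ran over chr7:143225106-143275491, 50.386 kb, longer than 99.834%. The longest piece was 25.729 kb for E16.5 het and 25.047 kb for E16.5 KO, 28.347 kb for P0 het and 28.301 kb for P0 KO, and 24.613 kb for P3 het and 24.165 kb for P3 KO. The start of *Kcnq1ot1*, at chr7:143296547 on the minus strand, was within 1 kb of a peak in no list.

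**Figure D3:**
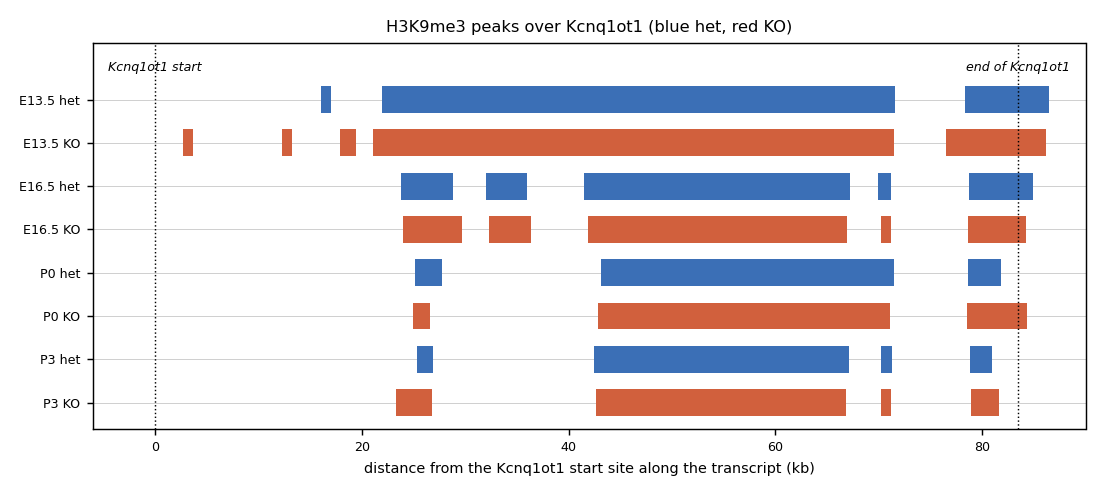
H3K9me3 peaks (bars) over Kcnq1ot1 in the 8 lists (y axis, het blue and KO red) against distance from its start along the transcript in kb (x axis, dotted lines mark its start and end). At E13.5 1 peak of 49.573 kb in het and 50.386 kb in KO fills the middle of the transcript, and from E16.5 on the part nearer the start is split or missing.

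Summed over the window of *Kcnq1ot1*, the covered length was 58.720 kb for E13.5 het and 63.573 kb for E13.5 KO, 42.190 and 41.331 kb on E16.5, 34.159 and 35.755 kb on P0, and 29.234 and 31.393 kb on P3. It was shorter at each stage than at the one before in both genotypes. The whole transcript lies inside *Kcnq1*, a potassium channel gene, whose covered length of 63.872 kb for E13.5 het and 72.550 kb for E13.5 KO includes this domain. *Kcnq1* stood at 50.513 and 48.507 kb on E16.5, 42.652 and 50.746 kb on P0, and 42.771 and 50.222 kb on P3. *Cdkn1c*, an inhibitor of cyclin-dependent kinases silenced by this RNA, had 2.890 kb for E13.5 het and 5.018 kb in KO, 1.510 and 1.001 kb on E16.5, and was in none of the 4 postnatal lists. *Ascl2*, a transcription factor gene of the trophoblast, went the other way, with no call before birth and 0.773 to 1.324 kb in the postnatal lists.

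Beside the paternally methylated genes some calls appeared after E13.5, at P3 near *H19* and from E16.5 on before *Rasgrf1*, while other stretches beside them had no such order. *H19*, a long non-coding RNA at chr7:142575530-142578146, had no call in its body or 5 kb flanks from E13.5 to P0. At P3 it had 1.256 kb in het and 1.836 kb in KO. The nearest P3 peaks were at chr7:142579834-142581089 in het, 1.687 kb beyond the end that faces *Igf2*, and at chr7:142580009-142581009 in KO, 1.862 kb beyond it. These peaks measured 1.256 kb in het and 1.001 kb in KO. The rest of the KO length was part of a peak at chr7:142570108-142571364, on the other side of the gene and in P3 KO only. The gene body itself was in no list. Over the 72.621 kb between *H19* and *Igf2*, the covered length was 0 kb for E13.5 het, 1.001 kb for E13.5 KO, 1.765 and 1.83 kb on E16.5, 1.253 and 1.512 kb on P0, and 3.548 and 5.588 kb on P3. Both P3 lists were above the 6 earlier ones, also per Mb covered by the list, with 12.4 and 17.8 bp against 6.47 bp or less.

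*Igf2*, which encodes the growth factor IGF2, differed from its neighbour in being marked throughout. A peak of 6.148 to 8.124 kb lay within 1 kb of the most upstream of its start sites, at chr7:142666816, in all 8 lists. The covered length in its window was between 4.954 kb (P0 KO) and 8.384 kb (E13.5 KO). The other *Igf2* starts had no call, apart from chr7:142661271 in E13.5 KO.

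*Rasgrf1* encodes an exchange factor for Ras, and its imprint lies upstream of the gene. In the 50 kb before the gene no peak was called at E13.5 in either genotype. The covered length was 3.797 kb for E16.5 het and 2.002 kb for E16.5 KO, 8.849 and 6.252 kb on P0, and 6.023 and 6.579 kb on P3. All 6 later lists thus had peaks where both E13.5 lists had none. They fell on 1 stretch, with chr9:89878128-89879944 and chr9:89881558-89883537 in E16.5 het, chr9:89874606-89882453 (7.848 kb) in P0 het, chr9:89876526-89882777 in P0 KO and chr9:89876614-89882636 in P3 het. Within the gene window, *Rasgrf1* had 4.459 kb for E13.5 het and 8.579 kb in KO, and 8.727 to 11.666 kb in the 6 later lists. Per Mb covered by the list the gene window had 26.9 and 45.3 bp on E13.5 and 29.4 to 34.8 bp later, so the KO value was then highest at E13.5. The 50 kb after the gene had 52.6 and 56.8 bp per Mb on E13.5 and 42.3 and 43.5 bp per Mb on P3.

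*Zdbf2*, a zinc finger gene with a paternal imprint at its locus, had 0 kb for E13.5 het and 2.229 kb in KO, 2.555 kb for E16.5 het and 0 kb in KO, 3.269 and 3.836 kb on P0, and 5.202 and 6.970 kb on P3. The postnatal lists were all above the embryonic ones. Per Mb covered by the list, P0 with 10.1 and 11.3 bp did not exceed the 11.8 bp of E13.5 KO, while P3 had 18.1 and 22.2 bp. The E13.5 KO length was 1 peak at chr1:63263465-63265693, inside the gene window and before the start site at chr1:63273269. E16.5 het had 1.554 kb there, and no other list had a call. The 50 kb before the left end of the gene, chr1:63200358, had another order, with 1.59 and 1.433 kb on E13.5, 5.585 and 4.711 kb on E16.5, 5.852 and 4.176 kb on P0, and 3.706 and 3.527 kb on P3. These lengths equal those of the window of *Gpr1*, a neighbouring gene. Which of these stretches holds the imprint was not determined. Most of the postnatal length inside the window was 1 peak towards the end of the gene, at chr1:63301720-63304988 in P0 het and chr1:63300141-63304854 in P3 KO. Neither of its 2 start sites was in a list.

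At *Meg3* itself the E13.5 lists held the greatest length, while a peak further upstream was longest at P3. The window of *Meg3* had 6.640 kb for E13.5 het and 4.352 kb in KO, 2.526 and 2.002 kb on E16.5, 0 and 0.303 kb on P0, and 2.845 and 1.686 kb on P3. In E13.5 het 1 peak of 6.64 kb at chr12:109537380-109544019 spanned the start at chr12:109540996, whereas in KO a peak on either side left the 1 kb around the start free. In the 77.659 kb between *Dlk1* and *Meg3*, the region that holds the control region of the cluster, the covered length was 5.775 kb for E13.5 het and 4.142 kb in KO, 3.861 and 2.823 kb on E16.5, 5.706 and 9.036 kb on P0, and 6.776 and 9.642 kb on P3. Per Mb covered by the list, E13.5 het was the highest with 34.8 bp, and P3 had 23.6 and 30.7 bp. Within it 1 peak was in every list, at chr12:109525762-109530799 in P3 KO. This peak was 2.159 kb for E13.5 het and 2.320 kb in KO, 2.336 and 1.822 kb on E16.5, 3.704 and 4.180 kb on P0, and 4.932 and 5.038 kb on P3. All 4 postnatal lists had it longer than all 4 embryonic ones. Per Mb covered by the whole list it was 13 and 12.2 bp on E13.5, 7.63 and 6.45 bp on E16.5, 11.4 and 12.3 bp on P0, and 17.2 and 16 bp on P3, so on that scale only the P3 lists were above both E13.5 lists. *Dlk1*, which encodes a membrane protein related to Notch ligands, was in no list. These intervals beside the genes were chosen after seeing the data.

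**Figure D4:**
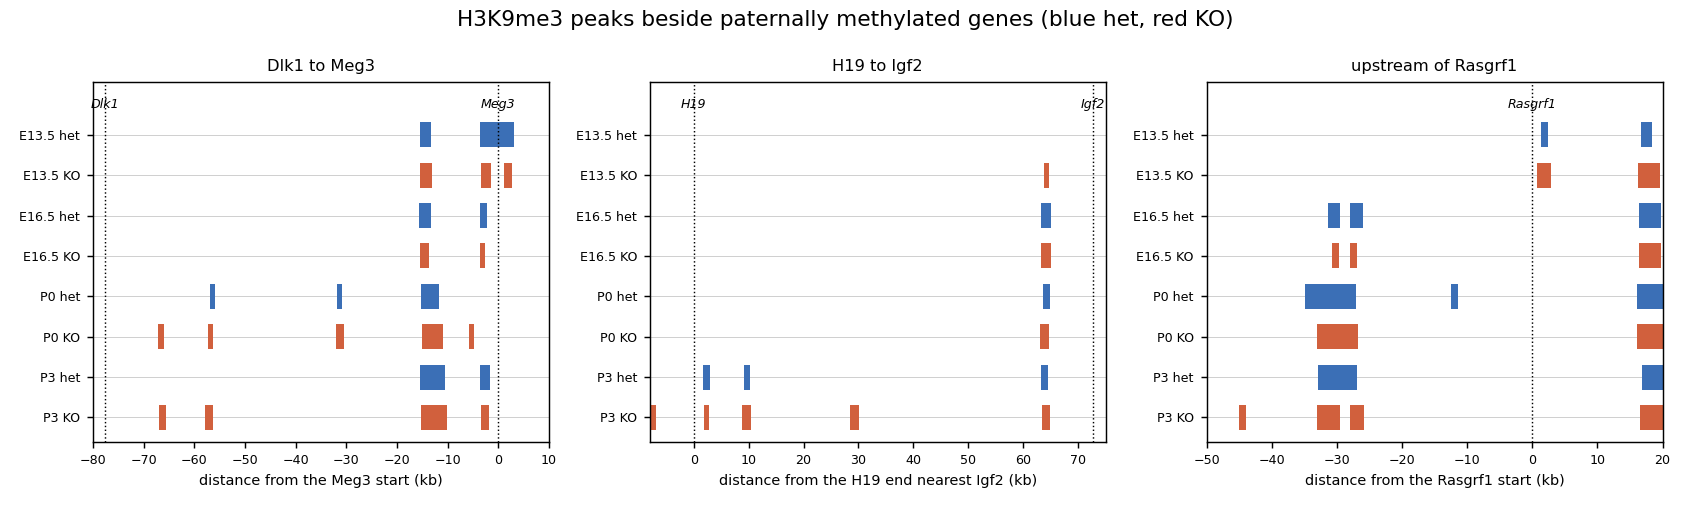
H3K9me3 peaks (bars) in the 8 lists (y axis, het blue and KO red) against distance in kb (x axis) between Dlk1 and Meg3, between H19 and Igf2, and before Rasgrf1. Before Rasgrf1 no E13.5 list has a peak and all later lists do, and within 5 kb of H19 peaks are seen at P3 only.

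Over whole gene windows the 4 paternally methylated genes were covered to a smaller share than the other 38. The pooled share, covered length over window length, was 3.639% against 7.507% in E13.5 het and 4.97% against 8.683% in E13.5 KO. It was 5.058% against 6.711% in E16.5 het, 3.517% against 6.253% in E16.5 KO, 4.778% against 6.667% in P0 het and 5.181% against 7.882% in P0 KO. At P3 it was 6.33% against 7.193% in het and 6.465% against 8.19% in KO. The paternally methylated genes were lower in 8 of 8 lists, or in 6 of 8 when whole clusters were compared. Much of the gap at E13.5 came with the *Kcnq1ot1* domain, which is counted under both *Kcnq1ot1* and *Kcnq1*. Without these 2 genes the others stood at 4.207% and 5.072% at E13.5, 4.375% and 3.951% at E16.5, 4.902% and 5.952% at P0, and 5.683% and 6.485% at P3, each het then KO. The paternally methylated genes were then higher in E16.5 het and P3 het. By the median over genes they were higher in 4 of the 8 lists, such as P3 het with 7.417% against 3.222%, and lower in the other 4, such as P0 het with 1.316% against 3.665%. With 4 genes in the smaller group, no direction held over both measures.

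**Figure D5:**
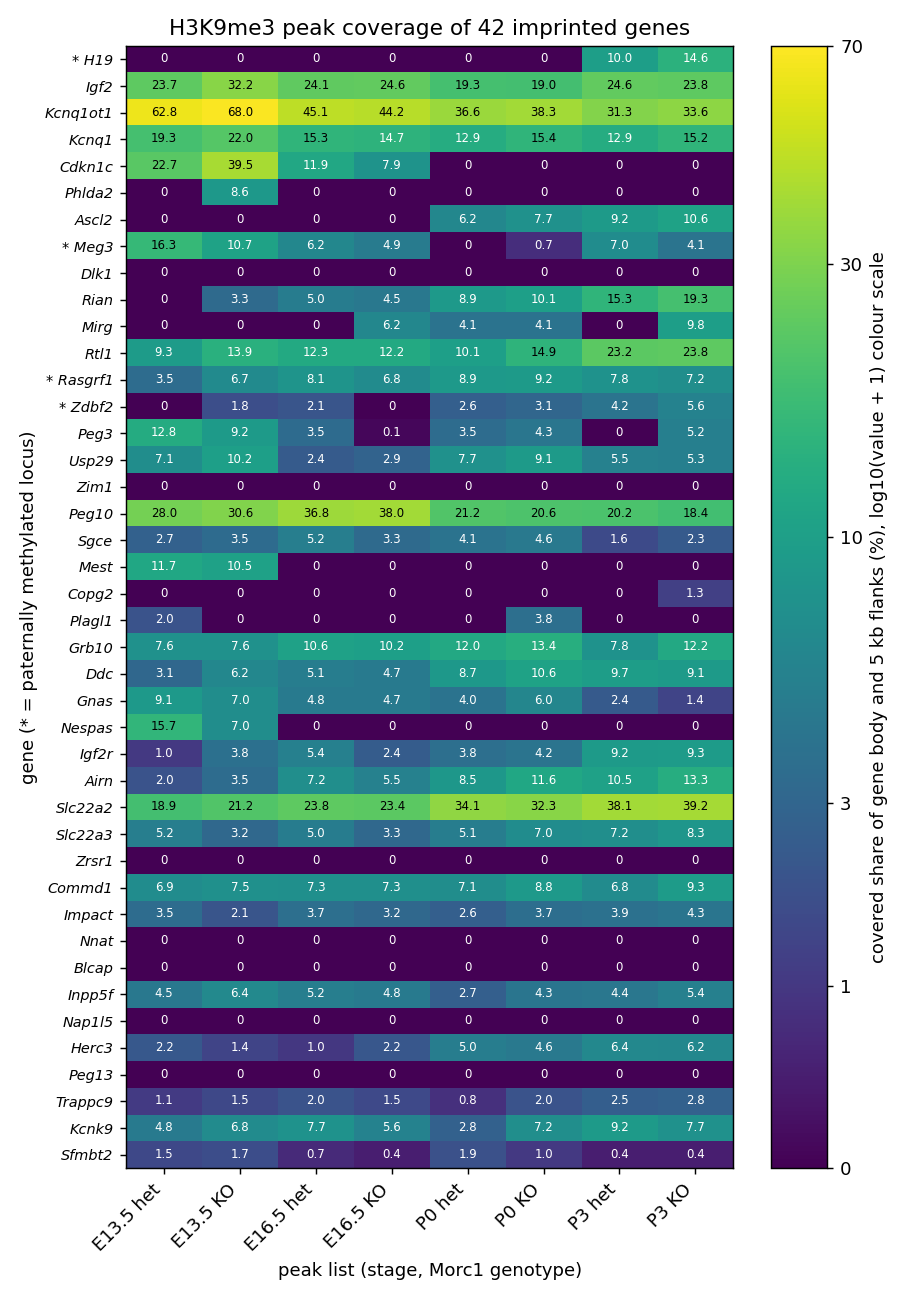
Share of each gene body and its 5 kb flanks in H3K9me3 peaks (percent, colour on a log10 scale of the value plus 1) for 42 imprinted genes (rows, an asterisk marks paternally methylated loci) in 8 lists (columns). Kcnq1ot1 reaches 62.8% and 68.0% at E13.5, 7 genes stand at 0 in every list, and H19 is above 0 at P3 only.

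At least 1 bp of gene body or flanks was in a peak for 28 of the 42 genes in E13.5 het, where 37.3% of all genes were called, and for 30 in E13.5 KO (42.1%). There were 27 in E16.5 het (43.6%) and 27 in KO (42.3%), 27 in P0 het (47.1%) and 29 in KO (52.6%), and 27 in P3 het (48.1%) and 30 in KO (51.4%). The imprinted genes have long windows, with a median of 52.582 kb against 22.754 kb for all genes, which these counts do not correct for. By list, 22 genes were called in all 8 (24.9% of all genes) and 7 in none (31.2%). Those 7 were *Dlk1*, *Zim1*, *Zrsr1*, *Nnat*, *Blcap*, *Nap1l5* and *Peg13*. Among them *Zrsr1*, *Nap1l5* and *Peg13* lie within the bodies of the larger genes *Commd1*, *Herc3* and *Trappc9*, and *Nnat* within *Blcap*. The 3 larger hosts *Commd1*, *Herc3* and *Trappc9* were called in all 8 lists, away from the gene inside them.

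In the *Igf2r* cluster the covered length was greater with age. *Igf2r* encodes the receptor that clears IGF2, *Airn* is the antisense RNA that silences it, and *Slc22a2* and *Slc22a3* are transporter genes of the cluster. Together their windows held 18.914 kb for E13.5 het and 21.323 kb in KO, 29.705 and 24.716 kb on E16.5, 38.067 and 43.266 kb on P0, and 48.0 and 53.074 kb on P3. *Airn* had 2.541 kb for E13.5 het and 4.469 kb in KO, 9.223 and 7.036 kb on E16.5, 10.951 and 14.878 kb on P0, and 13.514 and 17.074 kb on P3. *Slc22a2* had 10.288 and 11.529 kb on E13.5 and 20.668 and 21.282 kb on P3. In each genotype P3 was above E13.5 for all 4 genes. Per Mb covered by the whole list, the cluster had 114 and 113 bp on E13.5, 97 and 87.4 bp on E16.5, 117 and 127 bp on P0, and 167 and 169 bp on P3. On that scale E16.5 was below E13.5 and P3 was still the highest.

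In the *Meg3* cluster, *Rian* and *Rtl1* had their greatest covered length at P3. *Rian*, a host of small nucleolar RNAs, had 0 kb for E13.5 het and 2.259 kb in KO, 3.362 and 3.073 kb on E16.5, 6.014 and 6.870 kb on P0, and 10.391 and 13.106 kb on P3. *Rtl1*, a gene derived from a retrotransposon, had 4.620 and 6.893 kb on E13.5, 6.089 and 6.055 kb on E16.5, 4.982 and 7.395 kb on P0, and 11.490 and 11.802 kb on P3. For both genes the 2 P3 lists were the highest, also per Mb covered by the list. Their windows overlap, and a peak at chr12:109608508-109615494 in P3 het and chr12:109607226-109615788 in P3 KO added to both. *Mirg*, a host of microRNAs, had no call in 4 lists and at most 2.409 kb, in P3 KO.

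The other genes called in every list showed no common order. *Herc3*, a ubiquitin ligase gene, had 2.224 and 1.377 kb on E13.5, 1.001 and 2.136 kb on E16.5, 4.991 and 4.541 kb on P0, and 6.302 and 6.093 kb on P3. By unscaled length all its postnatal lists were above the embryonic ones. No length in this paragraph is given per Mb covered by the list, and the postnatal lists covered more of the genome than the E13.5 lists. *Ddc*, which encodes dopa decarboxylase, ranged from 2.948 kb (E13.5 het) to 10.001 kb (P0 KO), and *Kcnk9*, a potassium channel gene, from 1.567 kb (P0 het) to 5.203 kb (P3 het). *Sfmbt2*, a Polycomb group gene, had 3.578 and 4.043 kb on E13.5 and 1.001 kb in both P3 lists, with 4.408 kb for P0 het between them. *Impact*, a regulator of the kinase GCN2, stayed between 1.001 and 2.065 kb, *Inpp5f* between 2.535 and 6.076 kb, and *Sgce* between 1.334 and 4.286 kb.

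Counted over all 42 genes, a difference between stages was taken as a covered length at least 1 kb longer or shorter. From E13.5 to E16.5, 13 genes were longer in het (28.1% of all genes) and 12 shorter (8.08%), and in KO 5 were longer (22.4%) and 16 shorter (13.51%). Shorter genes were thus a larger share than among all genes in both genotypes. The counts between stages do not correct for the longer windows of the imprinted genes or for their more frequent calls at E13.5. When each length was scaled to the total of its list, het had 5 longer (14.2%) and 21 shorter (18.1%), and KO 1 longer (13.2%) and 26 shorter (21.2%). In both genotypes the shorter genes included *Kcnq1ot1*, *Kcnq1*, *Cdkn1c*, *Meg3*, *Peg3*, *Usp29*, *Mest*, *Gnas*, *Nespas* and *Sfmbt2*.

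From E16.5 to P0, 9 genes were longer in het (21.1%) and 11 shorter (14%), while in KO 19 were longer (31.1%) and 5 shorter (7.64%). The splits after scaling were 7 longer (17.1%) and 12 shorter (15.7%) in het and 14 longer (23%) and 7 shorter (12.2%) in KO. From P0 to P3, 14 were longer in het (18.4%) and 9 shorter (15.6%), and 15 longer in KO (18.7%) and 9 shorter (16.3%). After scaling they were 16 longer (23.1%) and 6 shorter (10.4%) in het and 17 (22%) and 7 (11.6%) in KO. *H19*, *Igf2*, *Meg3*, *Rian*, *Rtl1*, *Zdbf2*, *Igf2r*, *Airn* and *Slc22a2* were among the longer genes of both genotypes at this last step.

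Between genotypes, the imprinted genes followed the whole genome in direction at each stage by unscaled length, and after scaling at each stage but E16.5. At E13.5, 17 of 42 were longer in KO by at least 1 kb (17% of all genes) and 6 in het (4.67%). At E16.5, 3 were longer in KO (4.27%) and 10 in het (10.9%). At P0 the counts were 14 in KO (23.5%) and 1 in het (7.36%), and at P3 12 in KO (22.6%) and 1 in het (8.04%). The single genes longer in het were *Sfmbt2* at P0 and *Meg3* at P3. Scaling to the list totals gave 12 in KO (9.73%) and 9 in het (7.95%) for E13.5, 5 (6.9%) and 7 (6.13%) for E16.5, 12 (18.3%) and 2 (8.2%) for P0, and 9 (16.4%) and 6 (10.5%) for P3. In KO 7 genes were longer at both P0 and P3 (12.8%) and in het 0 were (3.47%). After scaling they were 3 in KO (8.99%), *Kcnq1*, *Airn* and *Commd1*, and 1 in het (4.34%), *Slc22a2*. With a gap of at least 2 kb required, 6 genes were longer in KO at P0, and the share of all genes at that limit was not computed. None of these counts corrects for the longer windows of the imprinted genes.

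By unscaled length, the 7 genes longer in KO at both postnatal stages were *Kcnq1ot1*, *Kcnq1*, *Grb10*, *Airn*, *Slc22a3*, *Commd1* and *Trappc9*. *Kcnq1* had 42.652 kb in the het list and 50.746 kb in the KO list of P0, and 42.771 and 50.222 kb on P3. *Trappc9*, which encodes a subunit of a vesicle tethering complex, had 3.832 and 9.426 kb on P0 and 12.267 and 13.392 kb on P3. *Grb10* had 14.049 and 15.626 kb on P0 and 9.133 and 14.237 kb on P3. *Commd1*, a gene of copper metabolism, had 6.725 and 8.390 kb on P0 and 6.418 and 8.830 kb on P3. Their gaps ran from 1.125 to 8.094 kb, and the KO lists covered more of the genome than the het lists at both. The start peaks of *Mest*, *Peg3* and *Gnas* were present in both genotypes at E13.5. The peaks before *Rasgrf1* were present in both from E16.5 on, and the peak upstream of *Meg3* in both at every stage.

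Other genes named as imprinted, 36 of them outside the set above, gave a smaller count at E13.5 starts. Of the 29 with a start site, 3 were called at E13.5 and in no later list, where 3.96% of all genes were. Over body and flanks, the het lists called 19, 15, 20 and 15 of them over the 4 stages in turn and the KO lists 21, 14, 20 and 18. Among all genes the shares were 37.3%, 43.6%, 47.1% and 48.1% in het and 42.1%, 42.3%, 52.6% and 51.4% in KO. By genotype, 10, 0, 12 and 12 of the 36 were longer in KO by at least 1 kb (17%, 4.27%, 23.5% and 22.6% of all genes), and 2, 5, 3 and 3 in het (4.67%, 10.9%, 7.36% and 8.04%). *Calcr*, the calcitonin receptor gene of the *Peg10* cluster, had 9.758 kb for E13.5 het and 15.366 kb in KO, and 17.793 and 24.132 kb on P3. *Ppp1r9a*, of the same cluster, had 10.665 and 9.666 kb on E13.5 and 26.079 and 31.624 kb on P3. The lengths of *Calcr* and *Ppp1r9a* were not scaled to the list totals, which were larger at P3 than at E13.5.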

How the data were processed

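The authors deposited 8 peak lists of H3K9me3 ChIP-seq, each with a chromosome, start and end per peak and no header, fold, score or p-value. The labels describe 32 samples in 16 groups of 2. Each list names a stage and genotype and no replicate, so it was taken as 1 pooled call set, and the histone H3 samples entered no comparison. The submitters' processing notes name bcl2fastq 2.20, cutadapt 1.18, Bowtie2 2.3.4.1, deepTools 3.5.0, HOMER 4.10 and build mm10. The control, the calling threshold and the handling of replicates are not given in the sources used here.

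At most 2 mitochondrial peaks per list were left out. With Python 3.11.15, NumPy 2.4.6 and pandas 2.3.3, the length of each gene body and its 5 kb flanks lying in peaks was computed, after a check on simulated peaks. Of the genes, 41 matched by symbol and *Nespas* by a synonym. Coordinates are 1-based on GRCm38. All described genes are named where their values bear on a comparison, and a difference of at least 1 kb was used as the limit. The genes and lists were chosen with earlier results of these data known. Alternatives tried were other flanks, limits, start windows, peak sets and scaling.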

Additional observations from a re-analysis of the deposited data

Results flagged for a closer look

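By unscaled length, in 11 genes the longer genotype was not the same at different stages, by at least 1 kb each way. In 5 of them it was so by at least 2 kb each way. The share of all genes with such a change was not computed, so these counts have no background. The imprinted genes also have longer windows, with a median of 52.582 kb against 22.754 kb. The differences between genotypes were not tested, since each genotype and stage has 1 list. *Kcnq1* was longer in KO by 8.678 kb on E13.5 and its KO minus het difference was -2.006 kb on E16.5, which sets the stages 10.684 kb apart. After scaling to the list totals this change was gone. *Kcnq1* then passed the 1 kb limit in neither direction on E13.5 and was longer in KO on E16.5. *Trappc9* was longer in KO by 5.594 kb on P0, against a difference of -2.085 kb on E16.5, 7.679 kb apart. For *Airn* the difference was 3.927 kb on P0 and -2.187 kb on E16.5, 6.114 kb apart. *Igf2r* had 2.71 kb on E13.5 and -2.91 kb on E16.5, 5.62 kb apart. *Zdbf2* was called in KO alone at E13.5 (2.229 kb) and in het alone at E16.5 (-2.555 kb), 4.784 kb apart. *Trappc9*, *Airn*, *Igf2r* and *Zdbf2* kept both directions by at least 1 kb after scaling. The other 6 of the 11 were *Rasgrf1*, *Peg3*, *Plagl1*, *Gnas*, *Slc22a3* and *Kcnk9*. In 7 of the 11, the 5 above among them, het was furthest ahead at E16.5, where the het list also covered more of the genome than the KO list, 306.2 against 282.7 Mb.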

How the results depend on the processing

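No paired analysis was possible because each list pools the samples of its group and no column carries a replicate. For the same reason no replicate was left out. Of 252 values under alternatives, 175 stayed within 1.5 times the value given and 77 did not. The paternally methylated genes had the lower pooled share in 6 of 8 lists with whole clusters compared. Under each other alternative the count was 8. The cause was not tested for the values that moved. Counts are of genes. Among the alternatives, shares of all genes were computed only for scaling, for starts with at least 10 CG and for either gene end. Whether the other counts differ from the background is therefore not known.

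With 10 kb flanks, longer in het from E16.5 to P0 were 14, longer in KO from E13.5 to E16.5 were 8, and longer in het than KO at P0 were 3. With no flank, longer in het than KO were 3 at E13.5, 2 at P0 and 2 at P3. Requiring 1.5 times as well as 1 kb, longer in KO than het were 8 at E13.5 and 4 at both P0 and P3, and in het 5 at E16.5. By stage, longer in KO were 2, 11 and 8 at the 3 steps, longer in het from P0 to P3 were 9, shorter in KO were 3 from E16.5 to P0 and 5 from P0 to P3, and shorter in het from E16.5 to P0 were 6. Requiring 2 kb, longer in KO than het were 0 at E16.5 and 6 at P0, and in het 2 (E13.5), 5 (E16.5) and 0 (P3). By stage, longer in KO were 2, 11 and 8, longer in het from P0 to P3 were 9, shorter in KO were 9, 2 and 4, and shorter in het were 7 from E16.5 to P0 and 5 from P0 to P3.

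With equal peak numbers, longer in KO than het at E16.5 was 1, in het 2 at both E16.5 and P0 and 3 at P3, and longer in KO from E16.5 to P0 were 12. With the longer 50% of each list, called genes were 17 in E13.5 het, 16 and 17 in E16.5 het and KO, 15 in P0 het and 19 in P3 KO. Longer in het than KO were then 2 at E16.5 and 0 at P0, longer from E13.5 to E16.5 were 8 in het and 3 in KO, and shorter from P0 to P3 were 5 in each. Scaled to the list totals, longer in KO than het were 5 at E16.5, in het 2 at P0 and 6 at P3, and from E13.5 to E16.5 the longer were 5 in het and 1 in KO, and the shorter 21 and 26. Without the shortest peaks, starts called in E13.5 het were 6, longer in het than KO at P3 were 2, and longer in KO from E13.5 to E16.5 were 8.

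For starts with the window covered to at least 50%, called genes were 6 and 7 at E13.5, 1 and 0 at P0 and 2 and 2 at P3 (het, KO), and 7 were called at E13.5 alone. A window of 2.5 kb gave 4 and 4 at P0. Chosen after seeing the data, starts with at least 10 CG gave 1 in E16.5 KO, 1 and 1 at P0 and 2 and 3 at P3, and either gene end gave 9 and 7 at E16.5, 5 and 7 at P0 and 8 and 9 at P3.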

Other observations

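Genes that set, keep or read imprints, and piRNA factors that guide DNA methylation in male germ cells, were also measured. Of 24 names, 22 matched. Over the 4 stages in turn, the het lists called 11, 6, 9 and 13 of them and the KO lists 10, 6, 11 and 13, while among all genes the shares were 37.3%, 43.6%, 47.1% and 48.1% in het and 42.1%, 42.3%, 52.6% and 51.4% in KO. *Zfp445*, a zinc finger gene that keeps imprints together with *Zfp57*, had the most covered length summed over the 8 lists, with 20.335 and 20.251 kb on E13.5, 24.621 and 22.922 kb on E16.5, 17.698 and 19.719 kb on P0, and 20.578 and 18.701 kb on P3 (het, KO). Unscaled, the *Zfp445* values were close to level over the stages. The lists themselves covered 166.1 and 189.5 Mb on E13.5 and 287.2 and 314.0 Mb on P3 (het, KO). No length in this paragraph was scaled to these totals. *Mov10l1*, a helicase gene of the piRNA pathway, had 12.467 and 17.704 kb on E13.5 and 22.72 and 24.069 kb on P3. *Setdb1*, the H3K9 methyltransferase gene, had 4.959 and 2.594 kb on E13.5 and 8.82 and 8.544 kb on P3. At starts, 3 of 19 genes were called at E13.5 and in no later list, where 3.96% of all genes were.

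Between *Dlk1* and the end of *Mirg*, 57 microRNA hairpins of the RefSeq table lie in the *Meg3* cluster. H3K9me3 peaks reached 7 of them in E13.5 het and 7 in KO, 7 and 6 at E16.5, 8 and 9 at P0, and 9 and 10 at P3. No share was computed for hairpins elsewhere in the genome, so these counts have no background. Neighbouring hairpins can lie in the same peak, and the lists covered more of the genome at P3 than at E13.5. The hairpins of *Mir127*, *Mir434*, *Mir432*, *Mir3071* and *Mir136*, which lie antisense to *Rtl1* or next to it, were called in all 8 lists. *Mir341* and *Mir1188* were called in the 4 postnatal lists and in no embryonic one.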
